A study of Mus musculus with 126 samples.

Results

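A set of 51 neuronal and synaptic genes was followed in mouse embryonic stem cells: the transcriptional repressor Rest, neural progenitor and proneural factors, and genes of the neuronal cytoskeleton, synaptic vesicles, secretory granules, transmitter handling, channels and adhesion. Members were chosen by gene symbol from a list of Rest itself, neural progenitor factors and neuronal genes described as repressed by REST and histone deacetylases, and all 51 are among the 23420 genes of the deposited count table. A filter on low counts kept 15822 genes for testing, 46 of the members among them. Neurog1, Gad2, Dcx, Scg2 and Gria2 did not pass it, and are described by their counts. The cells were J1 wild type embryonic stem cells, or cells of the same J1 strain without the DNA methyltransferases Dnmt1, Dnmt3a and Dnmt3b (DNMT.TKO, written TKO here). Each genotype received Trichostatin A (TSA), an inhibitor of histone deacetylases, at a labelled 5 ng/µl, or 0.0033% DMSO as the control, for 36 h. Cells given DMSO are called control and cells given TSA treated. All 4 groups grew on gelatin in serum with leukaemia inhibitory factor, and each has 2 RNA-seq libraries that the series describes as biological replicates. Whether the TKO cells are a single clone is not given in the sources used here. The other 118 of the 126 samples, which are ChIP-seq and ATAC-seq samples with their controls, were not analysed here.

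REST (also called NRSF) is a zinc finger repressor that binds the RE1 element near many neuronal genes. It recruits the CoREST and SIN3 complexes, which carry the histone deacetylases HDAC1 and HDAC2 that TSA inhibits, as well as the histone demethylase KDM1A. Embryonic stem cells and non-neuronal cells express REST at a high level, and its level falls as neurons form.

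The labels were checked first. Dnmt3b stood at 596 and 588 normalised CPM in control wild type cells and at 46.2 and 43.7 in control TKO cells, and Dnmt1 and Dnmt3a were also lower in every TKO library than in every wild type library. H1f0, a linker histone gene that histone deacetylase inhibitors are known to raise, was higher under TSA in wild type cells (log2 fold change 1.27) and in TKO (1.12). The libraries held 13280631 to 15542527 counts, so that 3 counts, the smallest level taken as detectable, equal 0.183 to 0.243 normalised CPM. Such floors, and the intervals given below, cover counting error only. Of 10 embryonic stem cell markers, all were detected in every group. With TSA, 8 were lower in wild type and 9 in TKO, none higher, where 25.9% and 27.9% of all tested genes were called lower, and 46.1% and 44.1% of the most abundant quartile of genes. Their summed level went from 4008 and 4247 to 2358 and 2087 normalised CPM in wild type and from 4708 and 4851 to 2372 and 1961 in TKO. The 2 wild type DMSO libraries differed most from each other. Of 39 members with at least 10 counts in both, 13 differed by over 1.5-fold, from 0.440 times (Scg3) to 3.77 times (Nefm) in the first library relative to the second, against 7 of 43, 7 of 37 and 9 of 41 in treated wild type cells, TKO DMSO and TKO TSA.

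Promoter sequences show which members carry an RE1-like element close to the start of transcription. The RefSeq windows (GRCm38.p6, 250 bases before to 50 after a start) covered 36 members in 45 windows. Calb1, Calb2, Gap43, Mapt, Nefh, Nefl, Nefm, Rest, Scn2a1, Scn3a, Snap25, Stmn2, Stmn4, Syt4 and Vamp2 had none. The conserved pieces of RE1, CAGCACC and GGACAG with 2 free bases between them, were searched on both strands with at most 1 mismatch over the 13 letters. They were found in 5 of the 45 member windows (11.1%), against 36 of 14487 windows of tested genes (0.248%) and 61 of all 32851 windows (0.186%). With no mismatch allowed they were in 0 of the 45 windows, 8 of the 14487 and 12 of the 32851. The list was drawn up around genes that REST represses, so the share describes the list and tests nothing. The 5 sites are shown 5′ to 3′ on the strand that reads CAGCACC, in lower case with the letters of the pieces in capitals, because the responses of these genes are set beside them further on.
Celsr3: cgttCAGCACCgtGGGCAGcacttc
Gad2: gtggTAGCACCctGGACAGcgcgtt
Gria2: atttTAGCACCgcGGACAGcgcttt
Slc17a6: tCAGGACCacGGACAGaggaag
Syn1: gattCAGCACCgcGGTCAGagcctt
They lie at chr9:108825916-108825940 (plus strand, Celsr3), chr2:22622159-22622183 (plus, Gad2), chr3:80802987-80803011 (plus, opposite to the Gria2 gene), chr7:51621858-51621879 (minus, opposite to the Slc17a6 gene and shortened by the end of the window) and chrX:20921128-20921152 (minus, the Syn1 gene's own strand). The site centres stand at -118, -157, -163, 41 and -223 bases from the RefSeq start, in the same order. Counted from 1 at the first letter of the left piece, the mismatches to the pieces are A12G in Celsr3, C1T in Gad2 and in Gria2, C4G in Slc17a6 and A12T in Syn1. In base composition the member windows were close to those of tested genes: the median window held 18 CpG in members and 19 in windows of tested genes, with median GC contents of 60% and 60.3%.

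Levels in control wild type cells ran from highly expressed genes to genes with 0 counts. On the scale of normalised CPM per kilobase of exon, which allows genes to be compared, the highest means ± SD over 2 libraries were those of Rest (120 ± 18.5), Stmn2 (113 ± 7.47), a microtubule destabiliser of growing axons, Tubb3 (93.2 ± 0.556), the neuronal beta-tubulin, and Uchl1 (78 ± 0.436), an abundant neuronal ubiquitin hydrolase. Nefl (69.5 ± 34.0), the light neurofilament chain, and Nes (28.4 ± 9.28), the progenitor filament nestin, followed. In this order Rest and Stmn2 do not differ beyond the spread of Rest, Uchl1 and Nefl not beyond that of Nefl, and Nes and Gap43 not beyond that of Nes, while Stmn2 and Tubb3 do. Gap43 stood at 21.4 ± 2.29, Ina at 14.5 ± 2.80 and Nefh at 11.5 ± 0.490, and the other 42 members were at or under 8.10 ± 1.82 (Syt11). Syn2 and Gria2 had 0 counts in both libraries. Together Rest, Tubb3, Stmn2, Nefl and Nes held 1243 and 1159 of the members' summed 1684 and 1590 normalised CPM in control wild type cells, 548 and 446 of 1007 and 920 in treated wild type cells, 1006 and 1001 of 1567 and 1548 in control TKO cells, and 507 and 505 of 1048 and 1139 in treated TKO cells. These RNAs come from bulk cultures, in which fewer cells of a type and less RNA per cell cannot be told apart.

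TSA moved neuronal genes in both directions. In wild type cells 15 of the 46 tested members were higher with TSA and 13 lower at an adjusted p below 0.05 (edgeR quasi-likelihood test, Benjamini-Hochberg adjustment over all tested genes), or 32.6% and 28.3%. Over all 15822 tested genes, 27.0% were called higher and 25.9% lower. In TKO cells 16 members were higher and 14 lower, or 34.8% and 30.4%, against 30.8% and 27.9% of all tested genes. The members' median log2 fold change was 0.08 in wild type and 0.20 in TKO, and that of all tested genes 0.01 and 0.04. These shares and medians lie near those of the whole transcriptome. Of the members, 23 were called in both genotypes, 12 of them higher in both and 10 lower in both. Only Nefl was called in opposite directions. A further 5 were called in wild type alone, 7 in TKO alone and 11 in neither, which does not by itself show a difference between genotypes. Under scaling by total counts alone, the median of all tested genes in wild type moved to 0.22 and the members called became 17 higher and 10 lower, and 70.5% of the calls over all genes were rises. Of the 28 calls in wild type and the 30 in TKO, 18 and 22 held under every alternative setting and with each library left out.

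**Figure D1:**
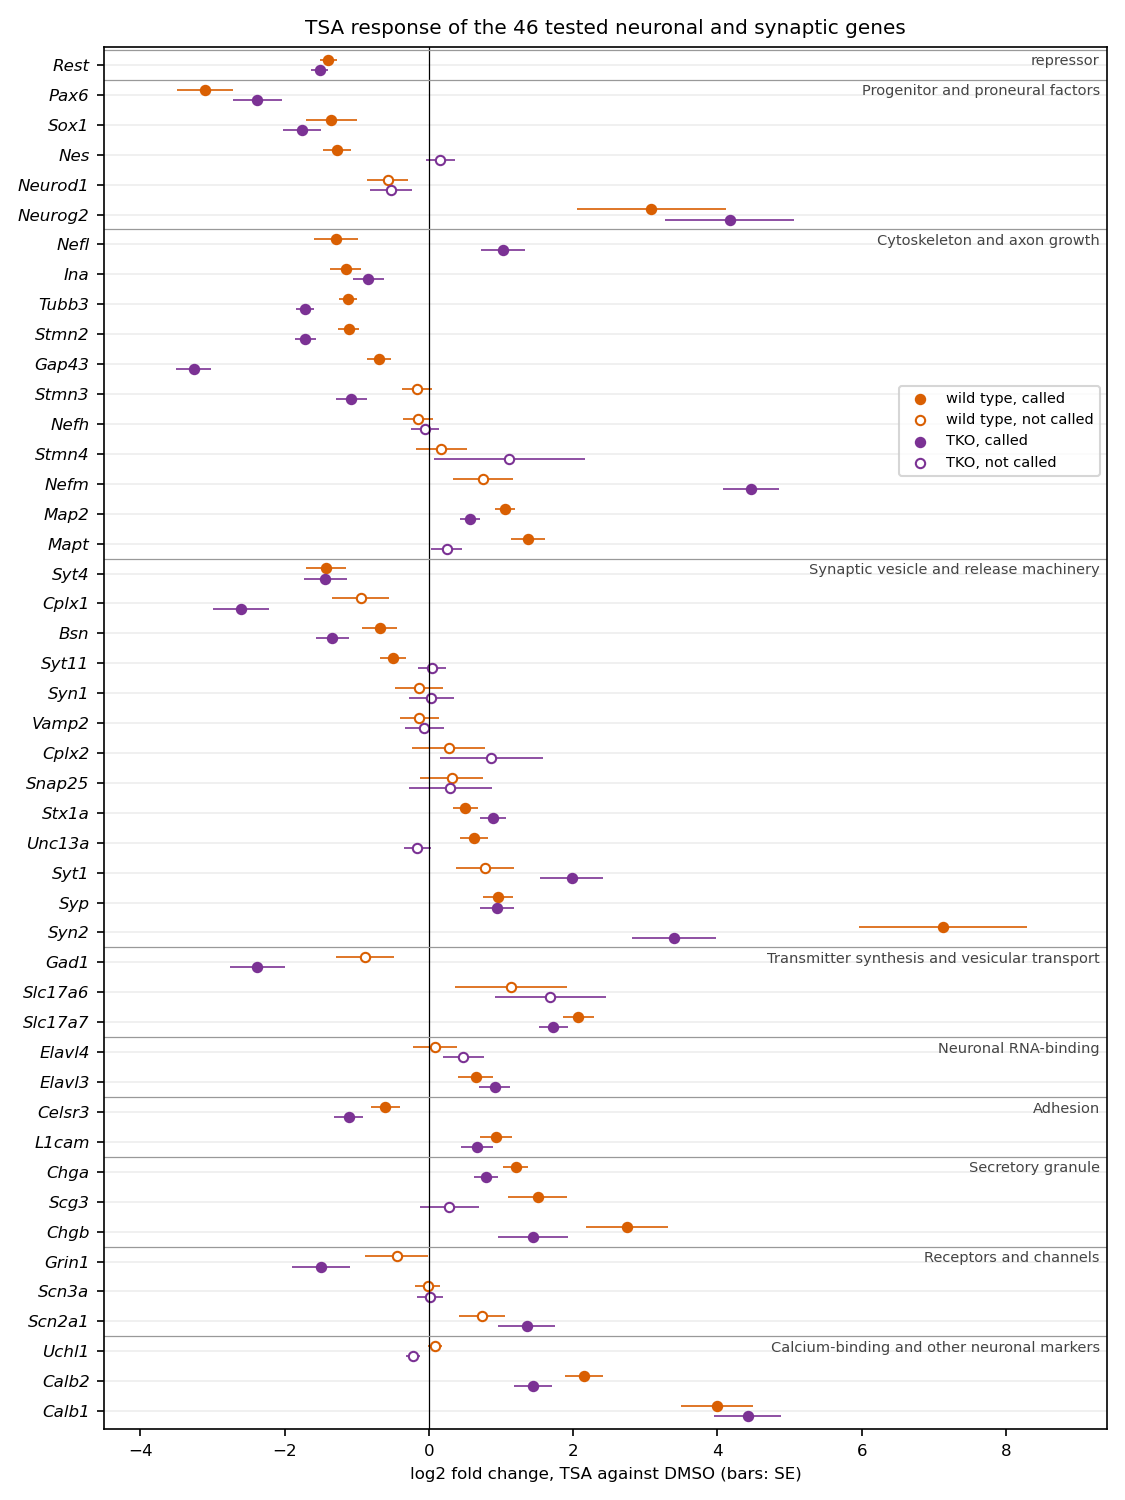
Log2 fold change for TSA against DMSO of the 46 tested members in wild type (orange) and TKO (purple), grouped by role, with bars of 1 SE and filled points for calls at an adjusted p below 0.05. Rest, Pax6, Sox1, Tubb3 and Stmn2 lie below 0 in both genotypes, Chga, Slc17a7, Calb1 and Calb2 above 0, and the fitted value of Syn2 in wild type has no finite base because both DMSO libraries were at 0.

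In wild type cells the direction of the calls differed by the level of the gene. Quartiles were set by the mean over all 8 libraries, TSA libraries included. Among the 7 tested members in the most abundant quartile of genes, 5 were lower with TSA in wild type and none higher. Among the 14 in the least abundant quartile, 4 were higher and none lower. Of those 4 rises, Neurog2, Syn2 and Chgb passed the filter on low counts only through TSA libraries. A fall could not be called for genes that passed in this way, members or others. In all genes, 46.1% of the most abundant quartile were lower and 12.7% higher, and 7.46% of the least abundant quartile were lower and 38.6% higher. The median log2 fold change of the most abundant quartile was -1.12 for the 7 members and -0.22 for all its genes. In TKO, 3 of the 7 most abundant were lower and 1 higher, with a median of -0.21, and of the 14 least abundant 5 were higher and 3 lower. Over all genes in TKO, 44.1% of the most abundant quartile were lower and 17.4% higher, and 12.6% of the least abundant were lower and 40.2% higher.

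**Figure D2:**
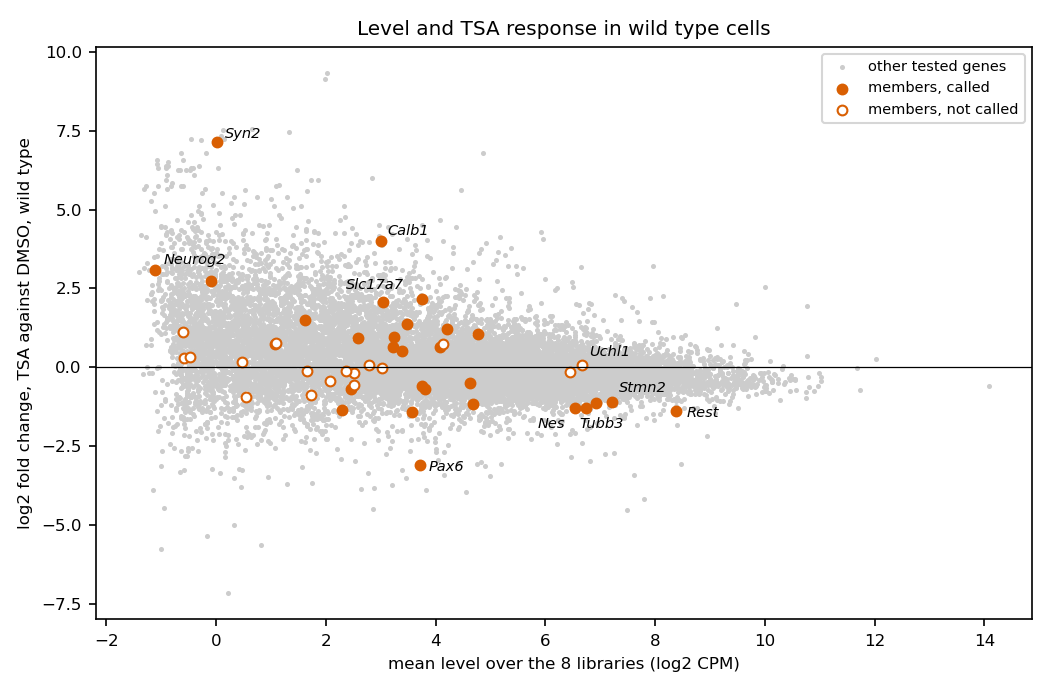
Mean level over the 8 libraries (log2 CPM, x axis) against the log2 fold change for TSA in wild type cells (y axis) for all tested genes (grey) and the 46 members (orange, filled where called). Rest, Stmn2, Tubb3 and Nes lie among the abundant genes below 0, and Calb1, Slc17a7 and Syn2 among the less abundant genes above 0.

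Rest itself fell with TSA in both genotypes. The gene (chr5:77265494-77283697, plus strand, mm10) stood at 457 and 569 normalised CPM in control wild type cells and 204 and 187 in treated wild type cells. In TKO it stood at 445 and 476 with DMSO and 171 and 152 with TSA. Every TSA library was below every DMSO library, and wild type and TKO overlapped in DMSO. The level fell 2.62-fold in wild type (log2 fold change -1.39, SE 0.12, adjusted p = 1.47e-05) and 2.86-fold in TKO (-1.51, SE 0.12, adjusted p = 4.04e-06). The TSA effects in the 2 genotypes were not called different (difference -0.12, SE 0.16, adjusted p = 0.80), nor were TKO and wild type cells with DMSO (-0.16, SE 0.11, adjusted p = 0.37) or with TSA (-0.28, SE 0.12, adjusted p = 0.12).

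A list of 20 corepressors and regulators of REST held changes in both directions. In wild type 7 of the 20 fell with TSA and 2 rose, with a median log2 fold change of -0.24, and in TKO 12 fell and 3 rose, with a median of -0.46. These are 35% lower and 10% higher in wild type, against 25.9% and 27.0% of all tested genes. In TKO they are 60% and 15%, against 27.9% and 30.8%. The list summed to 3413 and 3386 normalised CPM in control wild type cells. In the most abundant quartile of all tested genes, 46.1% were lower and 12.7% higher in wild type, and 44.1% and 17.4% in TKO. The calls of the list were not counted by quartile, and the part of level in them was not tested. The list was chosen with earlier results of these data known, so its shares test nothing. Rcor2, a CoREST family corepressor, stood at 142 and 119 normalised CPM in control wild type cells and 67.2 and 57.7 in treated wild type cells (log2 fold change -1.06, adjusted p = 5.37e-05). Kdm5c, a histone H3 lysine demethylase, went from 362 and 295 to 200 and 180 (-0.79, adjusted p = 0.00021). Ctdspl, a small phosphatase that REST recruits, went from 8.07 and 4.38 to 11.2 and 15.8 (1.11, adjusted p = 0.0072), and Btrc, the ubiquitin ligase adaptor through which REST is degraded, from 47.3 and 49.4 to 61.3 and 65.0 (0.39, adjusted p = 0.0072). All 4 moved in the same direction in TKO, each past the threshold, with log2 fold changes of -1.24, -0.69, 1.76 and 0.67.

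**Figure D3:**
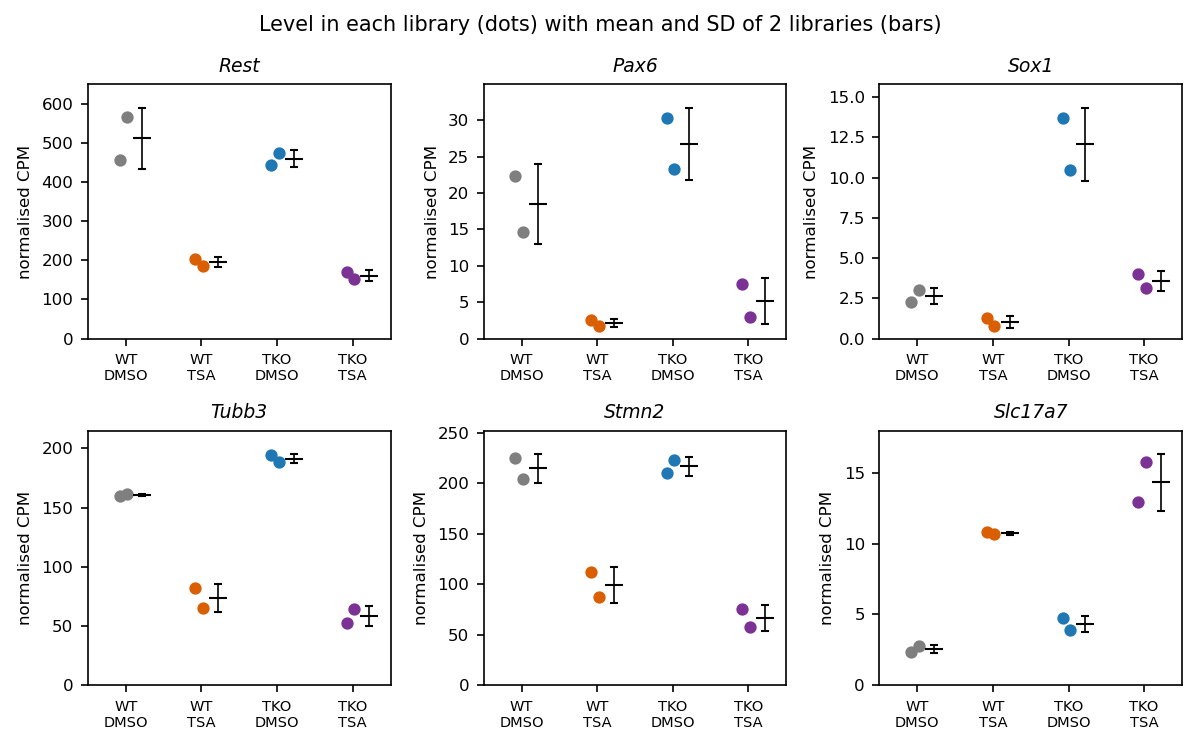
Normalised CPM (y axes, from 0) of Rest, Pax6, Sox1, Tubb3, Stmn2 and Slc17a7 in each library of the 4 groups (points), with mean and SD of 2 libraries (bars). TSA libraries lie below DMSO libraries of the same genotype for all but Slc17a7, where they lie above, and Sox1 is higher in control TKO cells than in the other groups.

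Of the 6 progenitor and proneural genes, 5 were tested. Pax6, a homeodomain factor of neural progenitors and eye, fell most. It stood at 22.4 and 14.6 normalised CPM in control wild type cells and 2.50 and 1.77 with TSA, and at 30.3 and 23.3 in control TKO cells and 7.44 and 2.95 with TSA. No TSA library reached a DMSO library. The falls were 8.60-fold in wild type (log2 fold change -3.11, SE 0.39, adjusted p = 0.00011) and 5.19-fold in TKO (-2.38, SE 0.34, adjusted p = 0.00017).

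Sox1, an early marker of neuroectoderm, stood at 2.28 and 3.00 normalised CPM in control wild type cells, 1.28 and 0.748 in treated wild type cells, 13.7 and 10.5 in control TKO cells and 3.99 and 3.14 in treated TKO cells. It fell under TSA in wild type cells (log2 fold change -1.35, SE 0.36, adjusted p = 0.0083) and in TKO (-1.76, SE 0.26, adjusted p = 0.0002). The call in wild type was lost without the second wild type TSA library (adjusted p = 0.0672). Nes, at 214 and 134 normalised CPM in control wild type cells and 81.0 and 62.5 with TSA, fell 2.42-fold (log2 fold change -1.28, adjusted p = 0.00036), and its values in TKO are given with the genotype comparisons. Neurod1, a proneural differentiation factor, ran from 3.45 to 7.80 normalised CPM and was called in neither genotype (-0.57 and -0.52), although leaving out the first TKO TSA library gave a call in TKO (adjusted p = 0.0491).

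The neurogenins were barely transcribed. Neurog2 had 0 and 1 counts in control wild type cells, 5 and 7 in treated wild type cells, 1 and 0 in control TKO cells and 11 and 13 in treated TKO cells, so all DMSO libraries were at or under 1 count. From the pooled counts the ratio was 10.2 in wild type (95% exact interval 1.5 to 435) and 22.2 in TKO (3.61 to 911). Neurog2 was called higher in both (adjusted p = 0.0271 and 0.0022). It passed the filter on low counts only through TSA libraries, so a fall could not be called in either genotype. The wild type call was lost with DESeq2 (adjusted p = 0.129), without the first wild type DMSO library (0.162) and without the second wild type TSA library (0.13). Neurog1 had 3 and 4 counts in control wild type cells, 1 and 2 in treated ones, 3 and 9 in control TKO cells and 0 in both TKO TSA libraries.

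Among 12 genes of the cytoskeleton and axon growth, 11 were tested. With TSA 5 fell and 2 rose in wild type, and 5 fell and 3 rose in TKO. These are 45.5% lower and 18.2% higher in wild type, against 25.9% and 27.0% of all tested genes. In TKO they are 45.5% and 27.3%, against 27.9% and 30.8%. The abundant microtubule genes fell in both. Tubb3 stood at 160 and 161 normalised CPM in control wild type cells, 82.0 and 65.4 in treated wild type cells, 194 and 189 in control TKO cells and 52.2 and 64.0 in treated TKO cells. The groups did not overlap between treatments, with falls of 2.18-fold in wild type (log2 fold change -1.12, SE 0.12, adjusted p = 5.54e-05) and 3.29-fold in TKO (-1.72, SE 0.13, adjusted p = 3.09e-06).

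Stmn2 stood at 225 and 205 normalised CPM in control wild type cells, 112 and 86.9 in treated wild type cells, 210 and 223 in control TKO cells and 75.3 and 57.1 in treated TKO cells. It fell 2.16-fold in wild type (log2 fold change -1.11, SE 0.14, adjusted p = 0.00013) and 3.27-fold in TKO (-1.71, SE 0.15, adjusted p = 6.63e-06). Ina, the neuronal filament alpha-internexin, also fell in both (-1.16 and -0.84), with 21.8% of its exon bases shared with exons of Nt5c2, and its TKO call was lost without the first TKO DMSO library (adjusted p = 0.0572). Gap43, a growth cone protein, fell in both (-0.69 and -3.26). Stmn3, a stathmin relative of Stmn2, was called lower in TKO alone (-1.07, against -0.17 in wild type, difference not called, adjusted p = 0.19).

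Map2 rose in both genotypes and Mapt in wild type. Map2, which binds dendritic microtubules, stood at 18.1 and 21.4 normalised CPM in control wild type cells, 39.8 and 42.3 in treated wild type cells, 20.3 and 17.5 in control TKO cells and 30.7 and 25.6 in treated TKO cells. It rose 2.08-fold in wild type (log2 fold change 1.05, SE 0.14, adjusted p = 0.00018) and 1.48-fold in TKO (0.57, SE 0.14, adjusted p = 0.0058), the second call being lost without the second TKO DMSO library (0.0598) or the first TKO TSA library (0.0565). Mapt, which encodes tau, rose in wild type from 4.50 and 5.35 to 12.7 and 12.8 (1.38, adjusted p = 0.00067). In TKO it was already at 9.51 and 14.6 with DMSO and stood at 12.7 and 15.8 with TSA (0.25, adjusted p = 0.34), and the difference between the effects was not called (-1.13, adjusted p = 0.12), although it was with no filter on low counts (adjusted p = 0.0406). Stmn4 and Nefh, the heavy neurofilament chain, were called for TSA in neither genotype, and Dcx, which encodes doublecortin, had 2 and 0 counts in control wild type cells, 7 and 6 in treated wild type cells, 1 and 1 in control TKO cells and 7 and 7 in treated TKO cells.

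All 13 genes of synaptic vesicles and the release machinery were tested, and 4 rose and 3 fell with TSA in each genotype. These are 30.8% and 23.1%. Over all tested genes, 27.0% were called higher and 25.9% lower in wild type, and 30.8% and 27.9% in TKO. Syp, the vesicle membrane protein synaptophysin, stood at 7.99 and 8.51 normalised CPM in control wild type cells, 18.7 and 13.3 in treated wild type cells, 4.52 and 4.08 in control TKO cells and 9.34 and 7.22 in treated TKO cells. TSA raised it 1.94-fold in wild type (log2 fold change 0.96, SE 0.21, adjusted p = 0.0031) and 1.92-fold in TKO (0.94, SE 0.23, adjusted p = 0.0049), without overlap within either genotype.

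Syn2, which encodes synapsin II, had 0 counts in both wild type DMSO libraries and 19 and 18 with TSA, and 3 and 2 counts in control TKO cells and 19 and 41 with TSA. Set against a floor of 3 counts per library, it was at least 5.21-fold higher with TSA in wild type (adjusted p = 0.00071). In TKO, where the DMSO libraries were also at or under the floor, it was called higher (adjusted p = 0.00071). The ratio of pooled counts there was 11.1 (95% exact interval 4.49 to 35.4). Syn2, among the rises counted above in each genotype, passed the filter on low counts only through TSA libraries. Only a rise could therefore be called for it. Syt4, a synaptotagmin of secretory and synaptic vesicles, fell instead, from 20.1 and 25.4 normalised CPM to 8.73 and 8.16 in wild type (-1.42, SE 0.27, adjusted p = 0.0014) and from 13.9 and 9.68 to 5.95 and 2.83 in TKO (-1.43, SE 0.30, adjusted p = 0.0019).

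The plasma membrane syntaxin gene Stx1a went from 8.92 and 9.32 normalised CPM to 13.9 and 12.0 in wild type (log2 fold change 0.51, adjusted p = 0.0304) and from 6.43 and 6.77 to 11 and 13.4 in TKO (0.89, adjusted p = 0.0015). Syt11, a synaptotagmin that does not bind calcium, went from 42.9 and 31.1 to 27.2 and 25.3 in wild type (-0.49, adjusted p = 0.0416), and stood at 20.3 and 14.3 in control TKO cells and 18.9 and 16.8 in treated TKO cells (0.04, adjusted p = 0.87). Bsn, a scaffold of the presynaptic active zone, fell in both (-0.68 and -1.34), and Unc13a, a vesicle priming factor, rose in wild type (0.63, against -0.16 in TKO). Syt1, the calcium sensor of release, was called higher in TKO (1.98, against 0.78 in wild type), and Cplx1, which encodes complexin 1, lower in TKO (-2.60, against -0.95). Without the first wild type DMSO library Syt1 was called in wild type too (1.43, adjusted p = 0.0396). None of these 4 differences between genotypes was called, with adjusted p-values of 0.41 (Bsn), 0.20 (Unc13a), 0.40 (Syt1) and 0.21 (Cplx1).

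Several wild type calls in this group were lost with a library left out, mostly at a similar fold. The log2 fold change of Bsn stayed between -0.71 and -0.66 and that of Stx1a between 0.40 and 0.60 with each of the 4 libraries left out, while that of Syt11 was -0.24 without the first wild type DMSO library. Without the first wild type DMSO library the adjusted p-values were 0.328 for Syt11, 0.102 for Stx1a, 0.0997 for Bsn and 0.0534 for Unc13a, and without the first wild type TSA library 0.0796, 0.181, 0.108 and 0.127. Without the second wild type DMSO library, Stx1a, Bsn and Unc13a were at 0.0669, 0.0702 and 0.0575, and without the second wild type TSA library Syt11, Stx1a and Bsn were at 0.154, 0.0516 and 0.112. DESeq2 did not call Syt11, Stx1a or Bsn in wild type (adjusted p = 0.0502, 0.0711 and 0.102), and total-count scaling did not call Syt11 or Bsn (0.201 and 0.123). Syn1, Snap25, Vamp2 and Cplx2 were called in neither genotype, with log2 fold changes between -0.13 and 0.86. They encode synapsin I, 2 SNARE proteins of membrane fusion, and complexin 2.

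All 3 tested secretory granule genes rose in wild type, where 27.0% of all tested genes were called higher. Chgb passed the filter on low counts only through TSA libraries, so only a rise could be called for it in either genotype. Chga, which encodes the granule core protein chromogranin A, stood at 8.99 and 8.92 normalised CPM in control wild type cells, 18.4 and 22.8 in treated wild type cells, 16.1 and 15.6 in control TKO cells and 23.8 and 31.0 in treated TKO cells. It rose 2.30-fold in wild type (log2 fold change 1.20, SE 0.18, adjusted p = 0.00028) and 1.73-fold in TKO (0.79, SE 0.17, adjusted p = 0.0019).

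Chgb, the chromogranin B gene, had 3 and 2 counts in control wild type cells, 19 and 22 in treated wild type cells, 6 and 6 in control TKO cells and 12 and 24 in treated TKO cells. It rose in wild type, where the ratio of pooled counts was 6.95 (95% exact interval 2.75 to 22.5, adjusted p = 0.0022), and in TKO (log2 fold change 1.44, SE 0.49, adjusted p = 0.024), with the TKO call lost without either TKO DMSO library (adjusted p = 0.111 and 0.0898), without the second TKO TSA library (0.247) and with DESeq2 (0.143). Scg3, which encodes a granule sorting protein, went from 1.07 and 2.43 normalised CPM to 3.85 and 6.05 in wild type (1.51, adjusted p = 0.0094), a call lost without the first wild type DMSO library (0.0794) or the second wild type TSA library (0.0748), and was not called in TKO (0.28, adjusted p = 0.57). Scg2, the secretogranin II gene, had 0 or 1 counts in each DMSO library and 4 to 6 in each TSA library. Endocrine cells share these granule genes. Of 7 endocrine markers 2 were tested and neither was called for TSA, Ins1 and Dbh were at 0 in all 8 libraries, and the list summed to 1.93 and 2.84 normalised CPM in control wild type cells, 3.24 and 4.28 in treated wild type cells, 1.92 and 3.78 in control TKO cells and 3.59 and 4.90 in treated TKO cells.

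Of the transmitter genes, Slc17a7, the vesicular glutamate transporter VGLUT1, rose in both genotypes. It stood at 2.36 and 2.76 normalised CPM in control wild type cells, 10.8 and 10.7 in treated wild type cells, 4.72 and 3.93 in control TKO cells and 12.9 and 15.8 in treated TKO cells. The rises were 4.21-fold in wild type (log2 fold change 2.07, SE 0.22, adjusted p = 4.37e-05) and 3.31-fold in TKO (1.73, SE 0.20, adjusted p = 3.62e-05). Gad1, which encodes the GABA-synthesising enzyme GAD67, stood at 3.43 and 2.27 in control wild type cells, 1.47 and 1.63 in treated wild type cells, 5.34 and 9.02 in control TKO cells and 1.83 and 0.942 in treated TKO cells. It fell 5.19-fold in TKO (-2.38, SE 0.38, adjusted p = 0.00031), was not called in wild type (-0.89, SE 0.40, adjusted p = 0.0838), and the difference was not called (adjusted p = 0.24). Slc17a6, the VGLUT2 gene, had 2 to 19 counts per library and was called in neither genotype.

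None of the 3 tested channel and receptor genes was called in wild type, where 27.0% of tested genes were called higher and 25.9% lower. Scn3a, a voltage-gated sodium channel, lay between 6.53 and 9.42 normalised CPM in all 8 libraries, with log2 fold changes for TSA of -0.01 (SE 0.17) and 0.01 (SE 0.18). Scn2a1, the sodium channel Nav1.2, went from 1.57 and 2.43 to 3.05 and 3.6 in wild type (0.74, SE 0.32, adjusted p = 0.0684) and from 0.616 and 0.80 to 1.62 and 2.01 in TKO (1.36, SE 0.39, adjusted p = 0.0113). That TKO call was lost without the first TKO DMSO library (0.0842) or the second TKO TSA library (0.0725), while in wild type the gene was called under total-count scaling (0.0283), under upper quartile scaling (0.038) and without the second wild type DMSO library (0.0464). Grin1, the obligate NMDA receptor subunit, was lower with TSA in TKO (-1.50, adjusted p = 0.0078, against -0.44, SE 0.43, adjusted p = 0.41 in wild type), a TKO call lost without the second TKO DMSO library (0.0966) or the first TKO TSA library (0.0551). It shares 31.3% of its exon bases with E130003G02Rik and Lrrc26, so its counts are uncertain.

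Both calcium buffer genes rose in both genotypes. Calb1, which encodes calbindin, stood at 0.357 and 1.05 normalised CPM in control wild type cells, 8.49 and 13.7 in treated wild type cells, 0.958 and 0.728 in control TKO cells and 12.2 and 24.2 in treated TKO cells. It rose 15.9-fold in wild type (log2 fold change 3.99, SE 0.50, adjusted p = 0.0001) and 21.4-fold in TKO (4.42, SE 0.46, adjusted p = 2.04e-05). Calb2, the calretinin gene, went from 4.64 and 6.57 to 22 and 27.6 in wild type (2.15, SE 0.27, adjusted p = 0.0001) and from 4.11 and 7.79 to 15.2 and 17.1 in TKO (1.44, SE 0.27, adjusted p = 0.00085). Uchl1 lay between 89.1 and 126 in all 8 libraries, with TSA effects of 0.08 (SE 0.10) and -0.21 (SE 0.10) that were not called, although total-count scaling called a rise of 0.29 in wild type (adjusted p = 0.0306).

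RNA-binding and adhesion genes completed the set. Elavl3, a neuronal RNA-binding protein of the Hu family, went from 6.92 and 10.2 normalised CPM to 11.9 and 14.9 in wild type (log2 fold change 0.65, adjusted p = 0.0404) and from 16.6 and 14.7 to 23.7 and 35.1 in TKO (0.91, adjusted p = 0.0043). Its relative Elavl4 lay at 3.93 to 10.8 over the 8 libraries and was not called for TSA (0.08 and 0.48). The Elavl3 calls were lost without the first wild type DMSO library (0.259), the second wild type TSA library (0.1995) or the second TKO TSA library (0.0576). L1cam, a neural cell adhesion molecule, rose from 4.43 and 3.81 to 7.76 and 8.02 in wild type (0.93, adjusted p = 0.005) and from 4.72 and 3.86 to 6.02 and 7.66 in TKO (0.67, adjusted p = 0.0226), the TKO call being lost without the second TKO DMSO library (0.136), without the second TKO TSA library (0.17) and with DESeq2 (0.0652).

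Of the 5 members with an RE1-like site in the promoter window, 3 were tested (Celsr3, Syn1 and Slc17a6). None of the 3 was called higher with TSA in either genotype. Over all tested genes, 27.0% were called higher in wild type and 30.8% in TKO. At such shares, 3 genes are too few for a comparison. Celsr3, a seven-pass cadherin of axon guidance, stood at 19.6 and 15.6 normalised CPM in control wild type cells, 12.7 and 10.5 in treated wild type cells, 17.2 and 16.3 in control TKO cells and 9.20 and 6.34 in treated TKO cells. TSA lowered it in wild type (log2 fold change -0.60, SE 0.20, adjusted p = 0.0249) and in TKO (-1.11, SE 0.21, adjusted p = 0.00085). The wild type call was lost without the first wild type DMSO library (adjusted p = 0.154), without the second wild type TSA library (0.15) and under total-count scaling (0.109). Syn1 lay at 1.78 and 3.49 in control wild type cells, 2.38 in both wild type TSA libraries, 3.15 and 3.86 in control TKO cells and 3.59 and 3.58 in treated TKO cells, with TSA effects of -0.13 (SE 0.33) and 0.03 (SE 0.31). Slc17a6 had 2, 6, 7 and 14 counts in wild type and 5, 2, 6 and 19 in TKO, DMSO before TSA. It was called in neither genotype (1.13, SE 0.78, and 1.68, SE 0.77), although leaving out the first TKO TSA library gave a call (adjusted p = 0.0319). Gad2, the gene of the GABA-synthesising enzyme GAD65, had 1 to 9 counts in each library, and Gria2, an AMPA receptor subunit gene, had 3 and 1 counts in treated wild type cells and 0 in the other 6 libraries. Neither gene passed the filter on low counts, so neither was tested.

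Other neuronal genes were looked up from a list of 34, of which 32 were tested. With TSA 14 rose and 1 fell in wild type, and 11 rose and 7 fell in TKO, with median log2 fold changes of 0.57 and 0.33. These are 43.8% higher and 3.12% lower in wild type, against 27.0% and 25.9% of all tested genes. In TKO they are 34.4% and 21.9%, against 30.8% and 27.9%. The list summed to 343 and 337 normalised CPM in control wild type cells. In the least abundant quartile of all tested genes and the next, 38.6% and 34.6% were higher in wild type, and 7.46% and 18.6% lower. The calls of this list were not counted by quartile either, and the part of level was not tested. The list was chosen with earlier results of these data known, so its shares test nothing. Camk2a, a synaptic protein kinase, went from 2.21 and 1.95 normalised CPM to 11.3 and 9.17 in wild type (2.29, adjusted p = 4.54e-05). Crmp1, which acts in growth cone guidance, went from 47.7 and 50.6 to 22.9 and 20.2 (-1.19, adjusted p = 8.72e-05) and fell in TKO as well (-1.39).

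Of 25 other neural development genes 18 were tested. With TSA 3 rose and 7 fell in wild type, while 5 rose and 4 fell in TKO. These are 16.7% higher and 38.9% lower in wild type, against 27.0% and 25.9% of all tested genes. In TKO they are 27.8% and 22.2%, against 30.8% and 27.9%. The factors Pou3f2 (1.97, adjusted p = 0.0322) and Isl1 (1.40, adjusted p = 0.0103) rose in wild type, and the Notch ligand Dll3 fell (-0.88, adjusted p = 0.0097). Sox3, a SoxB1 factor of the same group as Sox1, went from 2.78 and 3.00 normalised CPM to 1.10 and 1.70 in wild type (-1.05, adjusted p = 0.0276). In TKO it went from 3.63 and 2.69 to 7.78 and 12.1 (1.65, adjusted p = 0.00057), and the difference was called (2.70, adjusted p = 0.0262). Alternative settings and left-out libraries were read gene by gene for members only, so this call was not checked in that way.

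Markers of other cell types were also measured. Over all tested genes, 27.0% were called higher and 25.9% lower with TSA in wild type, and 30.8% and 27.9% in TKO. Of 12 glial markers 8 were tested, and 5 rose and 1 fell with TSA in wild type and 3 rose and 1 fell in TKO. Slc1a2, an astrocyte glutamate transporter, rose in wild type (log2 fold change 3.41, adjusted p = 0.00011), as did Sox10 (1.94, adjusted p = 0.0088), while Slc1a3 fell (-1.92, adjusted p = 2.32e-05). The glial list summed to 54.0 and 46.6 normalised CPM in control wild type cells, 44.7 and 45.9 in treated wild type cells, 17.9 and 17.8 in control TKO cells and 22.5 and 31.1 in treated TKO cells, with P2ry12 at 0 throughout. Of 5 tested endoderm markers (Sox17 among them, 2.71 in wild type) 1 rose in wild type and 2 in TKO, and their list summed to 5.35 and 6.48, 8.06 and 11.2, 16.0 and 18.4, and 27.4 and 31.4 in the same order of groups. Of 5 tested mesoderm markers 2 rose and 2 fell in wild type, Hand1 by 4.52 and Kdr by 1.59 upward and Acta2 (-1.92) and T (-1.50) downward, and 2 rose in TKO. Their list summed to 90.1 and 47.7, 48.0 and 45.1, 11.8 and 10.4, and 37.1 and 47.1. The part of other cell types in the neuronal genes' values was not tested.

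Fewer members differed between TKO and wild type cells than between TSA and DMSO. An effect of the lost DNA methyltransferases cannot be told apart here from other differences between the cell lines. With DMSO, 10 of the 46 were higher and 7 lower in TKO than in wild type, or 21.7% and 15.2%, against 9.63% and 10.7% of all tested genes. With TSA, 5 were higher and 6 lower, or 10.9% and 13%, against 10.0% and 8.38%. The members' medians were 0.07 and -0.10, and those of all genes -0.01 and 0.00. The members were chosen with earlier results of these data known, so these shares describe the list and test nothing. Of the members, 6 were called in both treatments, all in the same direction: Sox1, Elavl3 and Nefh higher, and Stmn4, Gap43 and Syp lower. The count with DMSO was 8 without the second TKO DMSO library. The count with TSA was 6 without the first wild type TSA library and 7 without the second TKO TSA library.

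**Figure D4:**
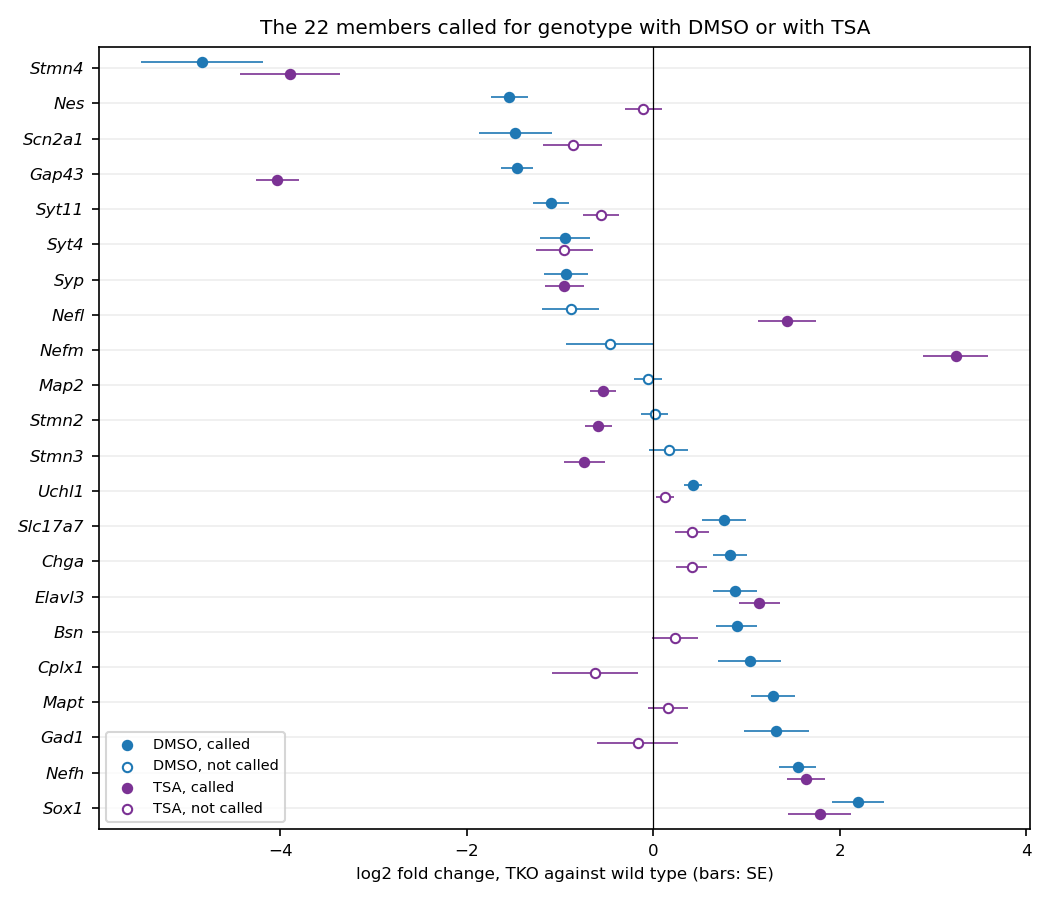
Log2 fold change for TKO against wild type with DMSO (blue) and with TSA (purple) of the 22 members called in at least 1 of the 2 comparisons, with bars of 1 SE and filled points for calls. Stmn4 and Gap43 lie lowest and Sox1 and Nefh are high in both treatments, while Nefm and Nefl are called higher with TSA and not called with DMSO.

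Stmn4, a neural stathmin, was all but lost in TKO. It had 42 and 18 counts in control wild type cells, 42 and 37 in treated wild type cells, 1 and 1 in control TKO cells and 2 and 3 in treated TKO cells. From pooled counts it was 32.3 times higher in wild type than in TKO with DMSO (95% exact interval 8.56 to 273), and 15.6 times with TSA (6.41 to 49.4). Stmn4 passed the filter on low counts only through wild type libraries, so only a lower level in TKO could be called. Both differences were called (adjusted p = 0.0006 and 0.00085). Nefh went the other way, at 47.1 and 44.3 normalised CPM in control wild type cells, 32.2 and 50.5 in treated wild type cells, 137 and 130 in control TKO cells and 104 and 152 in treated TKO cells. Its TKO level was 2.92-fold higher with DMSO (1.55, SE 0.20, adjusted p = 0.0005) and 3.11-fold higher with TSA (1.64, SE 0.20, adjusted p = 0.00045), and 10.6% of its exon bases are shared with Ap1b1.

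Sox1 was 4.59-fold higher in TKO with DMSO (log2 fold change 2.20, SE 0.28, adjusted p = 0.0004) and 3.45-fold higher with TSA (1.79, SE 0.34, adjusted p = 0.0048), on the values given above. Syp was lower in both (-0.94 and -0.95, adjusted p = 0.0164 and 0.0097), and Elavl3 higher in both (0.88 and 1.14, adjusted p = 0.0245 and 0.0055). With DMSO alone, Mapt (1.29), Gad1 (1.32), Cplx1 (1.03), Bsn (0.89), Chga (0.82), Slc17a7 (0.76) and Uchl1 (0.43) were called higher and Nes (-1.54), Scn2a1 (-1.48), Syt11 (-1.10) and Syt4 (-0.94) lower. Of these 11 and the 6 shared members, 8 calls with DMSO (Chga, Gap43, Mapt, Nefh, Nes, Sox1, Stmn4 and Syt11) held under every alternative and with each library left out. With TSA alone, Nefl (1.43) and Nefm (3.24) were called higher and Map2 (-0.54), Stmn2 (-0.59) and Stmn3 (-0.74) lower. Of the 11 calls with TSA, 6 (Gap43, Nefh, Nefl, Nefm, Sox1 and Stmn4) held in the same way.

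Cells with both the knockout and TSA were also set against wild type cells with DMSO, a comparison that shares its libraries with those above. In it 14 members were higher and 15 lower, or 30.4% and 32.6%, against 31.7% and 30.2% of all tested genes. Gap43 was lowest, at a log2 fold change of -4.72 (SE 0.23, adjusted p = 2.35e-07), and Syn2 was at least 8.44-fold higher. Elavl4 (0.89, adjusted p = 0.0208) and Scn3a (-0.44, adjusted p = 0.0467) were called in this comparison and in no other, and the Scn3a call was lost when any of the 4 libraries was left out, with adjusted p-values from 0.0752 to 0.181, and under total-count scaling (0.204). The Elavl4 call was lost without the first wild type DMSO library (0.165) or the first TKO TSA library (0.117).

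For 4 members the TSA effect itself differed between the genotypes. The interaction (the effect in TKO cells less the effect in wild type cells) was called positive for 3 members (6.52%) and negative for 1 (2.17%), against 0.879% and 0.468% of all tested genes. With the members chosen after earlier results of these data were known, these shares too describe the list and test nothing. The 4 were Nes, Nefl, Nefm and Gap43. The other filament genes among the members, Nefh (0.09, adjusted p = 0.93) and Ina (0.32, adjusted p = 0.70), were not called.

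Nefl (chr14:68083884-68087737) stood at 187 and 90.9 normalised CPM in control wild type cells, 69.4 and 44.7 in treated wild type cells, 92.0 and 58.5 in control TKO cells and 146 and 162 in treated TKO cells. TSA libraries lay below DMSO libraries in wild type and above them in TKO. It fell in wild type (log2 fold change -1.29, SE 0.31, adjusted p = 0.005) and rose in TKO (1.03, SE 0.30, adjusted p = 0.0127), a difference of 2.32 (SE 0.43, adjusted p = 0.0342). The fall in wild type was not called without the first wild type DMSO library (-0.67, adjusted p = 0.0621), nor the rise in TKO without the second TKO DMSO library (0.74, adjusted p = 0.116) or with DESeq2 (adjusted p = 0.0563).

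Nefm, the medium neurofilament chain (chr14:68119545-68125004, next to Nefl), stood at 5.50 and 1.46 normalised CPM in control wild type cells, 6.78 and 5.17 in treated wild type cells, 3.01 and 2.11 in control TKO cells and 48.0 and 65.6 in treated TKO cells. Only the TKO TSA libraries were high. The rise was 22-fold in TKO (log2 fold change 4.46, SE 0.39, adjusted p = 7.47e-06), the wild type change was not called (0.75, SE 0.42, adjusted p = 0.15), and the difference was 3.71 (SE 0.59, adjusted p = 0.0209). Without the first wild type DMSO library the wild type rise was larger and called (2.03, adjusted p = 0.0029) and the difference was 2.44. Of the Nefm exon bases 33.3% are shared with A230070E04Rik, so reads of the 2 may not be separated.

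Nes (chr3:87971093-87980451) stood at 214 and 134 normalised CPM in control wild type cells and between 54.7 and 81.0 in the other 6 libraries. The wild type DMSO group was above all others, and the other 3 groups lay close together. TSA lowered it in wild type and not detectably in TKO (log2 fold change 0.16, SE 0.20, adjusted p = 0.51), a difference of 1.44 (SE 0.28, adjusted p = 0.0369). TKO cells with DMSO were 2.92-fold lower than wild type cells with DMSO (-1.54, SE 0.20, adjusted p = 0.00046), and with TSA the genotypes were not called different (-0.11, SE 0.20, adjusted p = 0.745).

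Gap43 (chr16:42248561-42340651) stood at 25.7 and 29.9 normalised CPM in control wild type cells, 18.7 and 15.6 in treated wild type cells, 11 and 9.10 in control TKO cells and 1.08 and 1.00 in treated TKO cells. The 4 groups were fully separated, each below the one before. It fell 1.62-fold under TSA in wild type cells (log2 fold change -0.69, SE 0.16, adjusted p = 0.0044) and 9.59-fold in TKO (-3.26, SE 0.24, adjusted p = 3.07e-06), a difference of -2.57 (SE 0.30, adjusted p = 0.0052). TKO was 2.76-fold lower with DMSO (adjusted p = 0.00025) and 16.4-fold lower with TSA (adjusted p = 3.11e-06). Of the 4 interaction calls, Gap43's held with each library left out. The other 3 were all lost without the first wild type DMSO library or either TKO DMSO library, and Nes and Nefl also without the second wild type or the second TKO TSA library, with adjusted p-values from 0.0552 to 0.183 over the 3 genes. Without the first TKO DMSO library the differences were 1.56 for Nes, 2.68 for Nefl and 3.99 for Nefm, and without the second 1.32, 2.03 and 3.48. Over all genes the interaction calls numbered 139 positive and 74 negative with all libraries, and in both directions together 72 without the first wild type DMSO library, 44 without the first TKO DMSO library and 10 without the second.

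**Figure D5:**
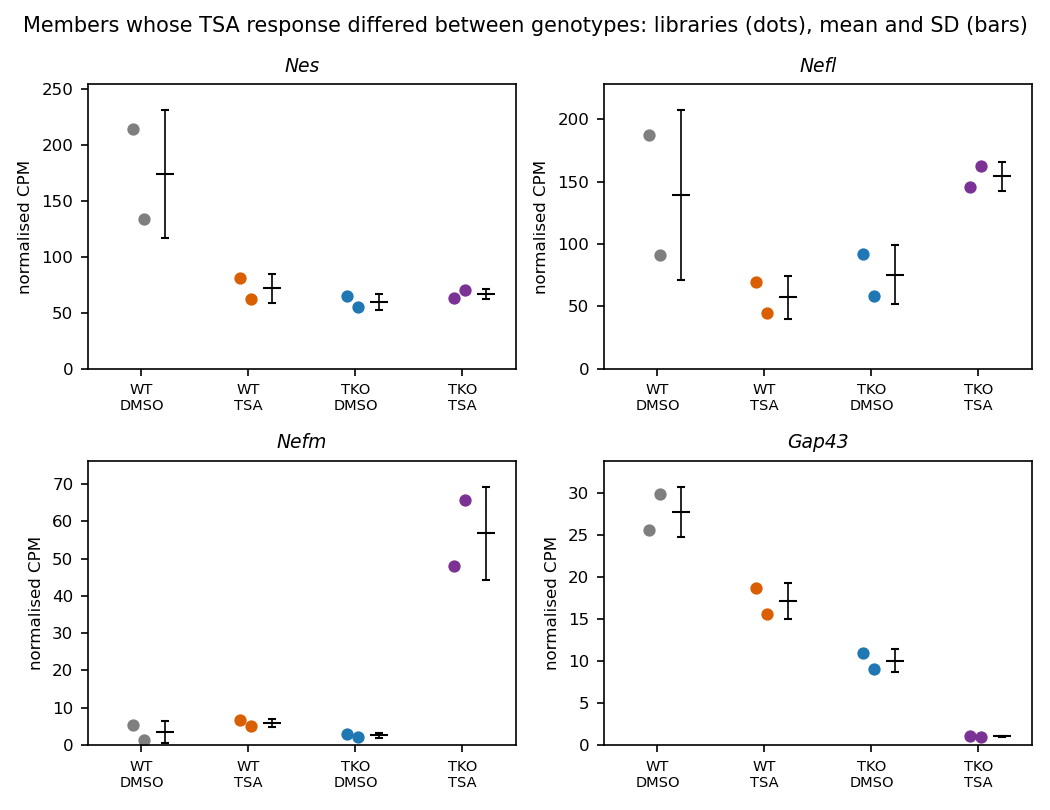
Normalised CPM (y axes, from 0) of Nes, Nefl, Nefm and Gap43 in each library of the 4 groups (points), with mean and SD of 2 libraries (bars). Nes is high in control wild type cells alone, Nefl falls with TSA in wild type and rises in TKO, Nefm is high in treated TKO cells alone, and Gap43 steps down from 25.7 and 29.9 to 1.08 and 1.00.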

How the data were processed

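Counts of reads per gene were deposited by the authors as 1 table for the 8 libraries, with raw values and an exon length for every gene. Per the labels' protocols, total RNA was depleted of ribosomal RNA and made into strand-directional, paired-end libraries. TopHat2 2.0.13, featureCounts 1.4.5-p1, edgeR 3.22.3 and the build mm10 are named in the submitters' processing notes. The annotation, the strand setting and the handling of multi-mapping reads are not given in the sources used here, so genes with shared exons are uncertain.

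The groups come from the labels, which number the replicates 1 and 2. The test was edgeR's (version 4.0.16, under R 4.3.3). Its filterByExpr filter, TMM scaling and 1 quasi-likelihood model of the 4 group means (4 residual degrees of freedom, common biological coefficient of variation 10.3%) were used for 6 contrasts, with two-sided tests and Benjamini-Hochberg adjustment over 15822 genes. The SE is the log2 fold change divided by the square root of F, and is approximate. An exact permutation of 2 against 2 libraries cannot go below p = 0.333. Normalised CPM uses TMM-scaled totals, and levels between genes were compared per kilobase of the deposited exon length. No pair of replicates agreed within sampling noise (chi-square per degree of freedom 5.40 to 12.4).

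The members and gene lists were chosen with earlier results of these data known. Named members are, per role, the 3 with the highest level and the 3 with the smallest p for TSA in wild type, plus every interaction call. From each list, up to 2 rises and 2 falls at 1 CPM or more are named. One gene that this rule selects is not reported here. Alternatives were DESeq2 1.42.0, other scalings, no filter, only the groups compared, a replicate block, and each library left out. The scripts were tested on simulated data. Promoter windows are RefSeq's, matched by symbol.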

Additional observations from a re-analysis of the deposited data

Results flagged for a closer look

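For 4 members the TSA effect differed between the genotypes by the test of the interaction (edgeR, adjusted over all tested genes). The difference, TKO minus wild type on the log2 scale, was -2.57 for Gap43 (adjusted p = 0.0052), 2.32 for Nefl (adjusted p = 0.0342), 3.71 for Nefm (adjusted p = 0.0209) and 1.44 for Nes (adjusted p = 0.0369). DESeq2 called all 4 as well, with adjusted p-values of 1.44e-07, 0.0298, 0.0073 and 4.73e-05. The first wild type DMSO library was the higher of its group for Nes (2999 and 1649 counts), Nefl (2623 and 1122) and Nefm (77 and 18), but not in normalised CPM for Gap43 (25.7 and 29.9). Without it the differences were 1.06 for Nes, 1.71 for Nefl, 2.44 for Nefm and -2.45 for Gap43, with adjusted p-values of 0.0631, 0.0661, 0.0906 and 0.0127.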

How the results depend on the processing

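No called member reversed its direction under any alternative run. With single libraries left out, the members called ranged from 20 to 26 for TSA in wild type, 25 to 30 for TSA in TKO, 8 to 14 for TKO against wild type with DMSO, 6 to 13 with TSA, 24 to 30 for treated TKO against control wild type cells, and 1 to 4 for the interaction. The interaction count was 1 without the first wild type DMSO library or either TKO DMSO library, and 2 without the second library of either TSA group. An arm with a single library is assumed to vary like the other groups. A replicate block gave 21 members called (10 higher, 11 lower) for TKO against wild type with TSA, in place of 11, and 29, 31, 20, 32 and 5 for the other contrasts, in place of 28, 30, 17, 29 and 4. Same-numbered libraries deviated together with correlations across genes of 0.0485 to 0.389, and the labels do not say what a number marks, so pairing is not established. Total-count scaling raised the share of higher calls among all genes for TSA in wild type to 70.5% (upper quartile scaling 65.8%), and gave 17 higher and 10 lower members (upper quartile 16 and 10). Members with under about 10 counts per library are limited by depth.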
